A study of Homo sapiens with 6 samples.

Results

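Cells hold superoxide, peroxides and electrophiles in check with a set of antioxidant enzymes and with glutathione, a small thiol peptide. NRF2, the transcription factor encoded by NFE2L2, switches on many genes of this defence. It pairs with small Maf proteins on antioxidant response elements, and KEAP1 keeps its level low by presenting it for degradation. PGC1-alpha, the coactivator encoded by PPARGC1A, is best known for driving mitochondrial genes and has also been linked to antioxidant genes such as SOD2, CAT, GPX1 and UCP2.

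The genes described here are 41 antioxidant, glutathione and NRF2 target genes, found by their symbols in a table of 57688 rows. A minimum mean of 1 FPKM (fragments per kilobase of gene length, scaled to sequencing depth) over the 6 libraries was passed by 39 of them, each also with a mean of at least 1 FPKM within both groups. SRXN1 and MGST1 fell below it. Just inside the minimum were GCLM at a siNC mean of 1.46 and a siPGC1a mean of 1.28 FPKM and SLC7A11 at 1.07 and 1.87 FPKM. The nearest member below the minimum, MGST1, was far under it at 0.201 and 0.174 FPKM. The members were divided by role into 2 genes of NRF2 control, 8 well-known NRF2 targets and 31 other enzymes and proteins, here called constitutive enzymes. That name is only a label, since GSR, TXN and PRDX1 among them also count as NRF2 targets in a wider list below.

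The cells were WM3248, an established human melanoma line labelled as VGP primary melanoma. The siNC group was transfected with AllStars negative control siRNA (3 libraries) and the siPGC1a group with a PPARGC1A siRNA (3 libraries), and the comparison asks what differs once PPARGC1A is targeted. Both siRNAs were given at 30 nM by lipid transfection and RNA was taken after 48 h. A single siRNA catalogue number is given for PPARGC1A, and the growth medium of both groups held insulin and epidermal growth factor. Separate cultures are not mentioned in the labels, so the p-values measure only how these libraries spread, and that spread may be technical.

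PPARGC1A, the targeted gene, was at 0.932, 1.04 and 0.947 FPKM under siNC and at 0.4, 0.354 and 0.413 FPKM under siPGC1a (limma adjusted p = 0.000234). Steps in the low FPKM values placed each library at 25040000 to 26400000 reads. The melanocyte lineage gene SOX10 stood at 230.0 to 246.3 FPKM in the group means and S100B at 801.9 and 923.9 FPKM, while PMEL (5.29 and 3.77 FPKM) and MLANA (1.86 and 1.02 FPKM) were low. Of the 7 melanocyte markers tested 1 was higher in siPGC1a (S100B) and 4 were lower: the abundant pigment gene DCT (393.9 and 253.3 FPKM, limma adjusted p = 5.89e-06), MITF (7.24 and 5.52 FPKM), PMEL and MLANA. Of 7 immune markers, PTPRC was listed at 0 in every library, and LYZ was the most abundant over all 6 libraries (1.73 and 0.914 FPKM). Endothelial markers summed to 1.09 to 1.22 FPKM in siNC and 0.818 to 0.92 FPKM in siPGC1a. Of 7 keratinocyte markers 5 had a mean under 0.1 FPKM, and KRT10 alone among them passed the minimum (20.6 and 22.4 FPKM). The 8 fibroblast markers, led by THY1, summed to 45.8 to 46.6 FPKM in siNC and 37.0 to 39.9 FPKM in siPGC1a. The part of these markers in the results below was not tested. In such bulk samples, fewer cells of a type and less RNA per cell cannot be told apart.

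Of the 39 tested members 15 were higher in siPGC1a, 10 were lower and 14 did not pass the limma threshold (adjusted p under 0.05 over all 12020 genes tested). Across all genes tested 48.1% passed, 25.6% higher and 22.5% lower, and among the members 64.1% passed, 38.5% higher and 25.6% lower. Fewer were lower without siNC replicate 1 (6 members), without siNC replicate 3 (5 members) and with no minimum level (6 members), and the lowest number higher was 10. With the log2 values scaled to the same quantiles the split was 10 higher and 12 lower. The median difference of the members was 0.06 on the log2(FPKM + 1) scale, against 0.01 for all genes tested, and their median size regardless of sign was 0.14, against 0.15. Changes were small: SOD2 and SLC7A11 were the 2 tested members that differed at least 1.5-fold in mean FPKM.

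**Figure D1:**
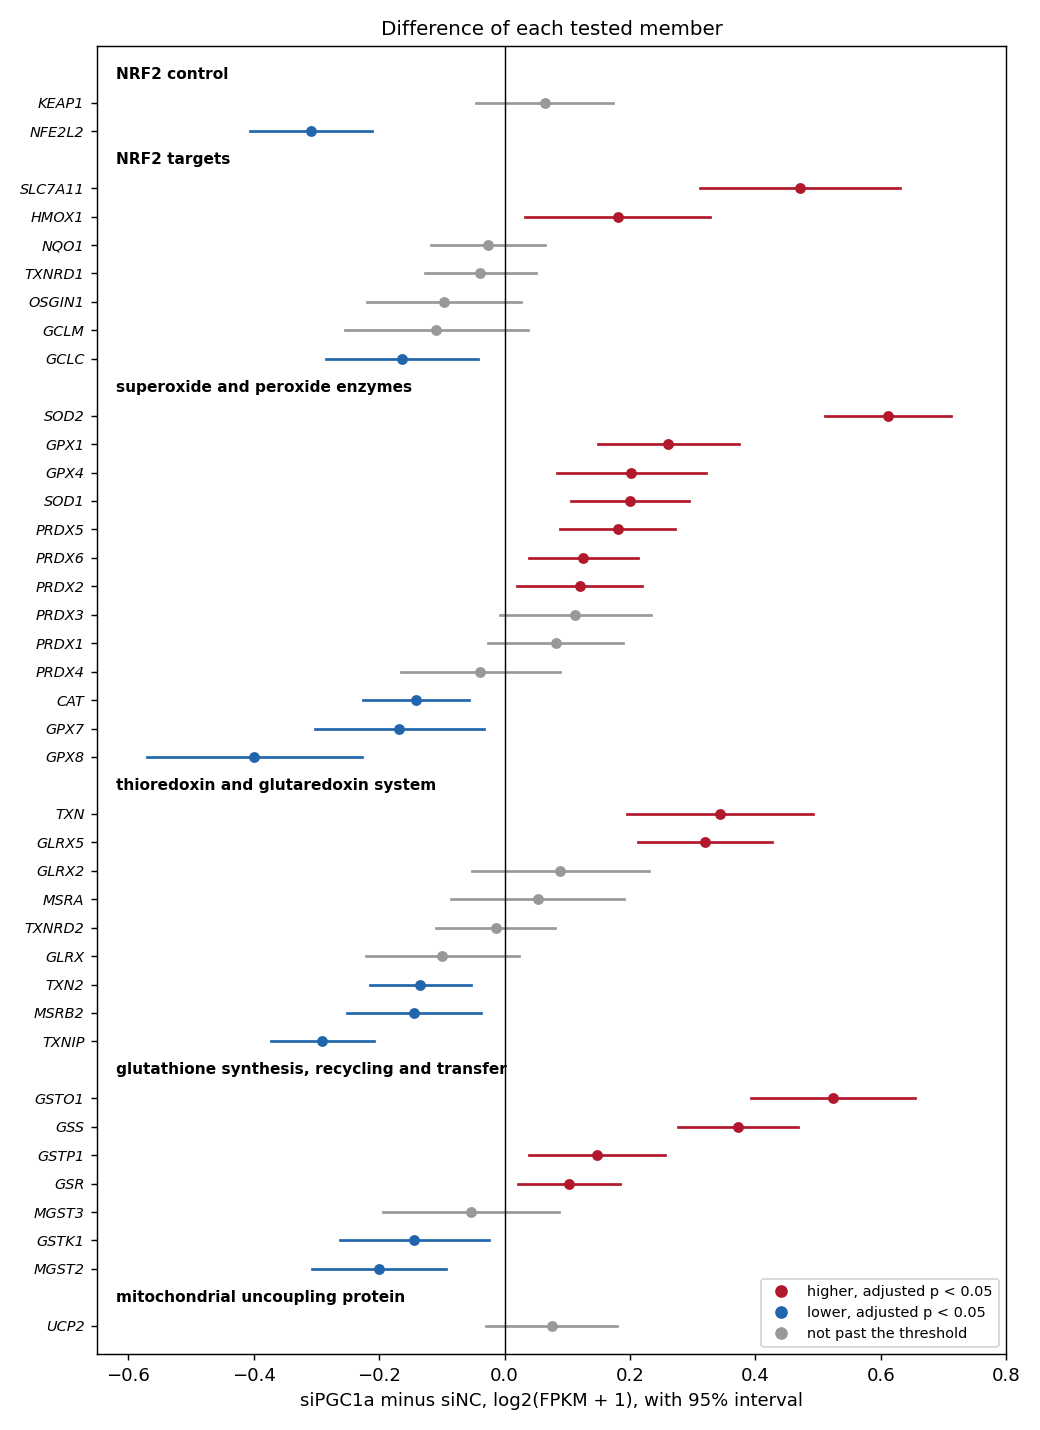
Difference between siPGC1a and siNC for each of the 39 tested members on the log2(FPKM + 1) scale (x axis), grouped by role, with the 95% interval from limma as a bar. SOD2, GSTO1 and SLC7A11 lie farthest to the right and GPX8, NFE2L2 and TXNIP farthest to the left, and the other members lie closer to 0.

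The groups of 27 members did not overlap, 16 with all siPGC1a libraries above all siNC libraries and 11 below. Across all genes tested 57.2% did not overlap, 29.8% with siPGC1a above and 27.4% with siPGC1a below. The coefficient of variation of the members within a group had a median of 3.27% in siNC and 4.67% in siPGC1a, and reached 13.8% and 12.1%. Levels ranged over more than 2 orders of magnitude. PRDX5 was the most abundant member, at 249.9, 269.4 and 261.6 FPKM in siNC and 284.1, 303.0 and 298.0 FPKM in siPGC1a. PRDX1, GSTP1, TXNIP, NQO1, GPX1 and PRDX4 also averaged above 100 FPKM over the 6 libraries. Together the 41 genes made up 0.892 to 0.902% of the summed FPKM of a siNC library and 0.917 to 0.947% of that of a siPGC1a library, so the ranges did not overlap.

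**Figure D2:**
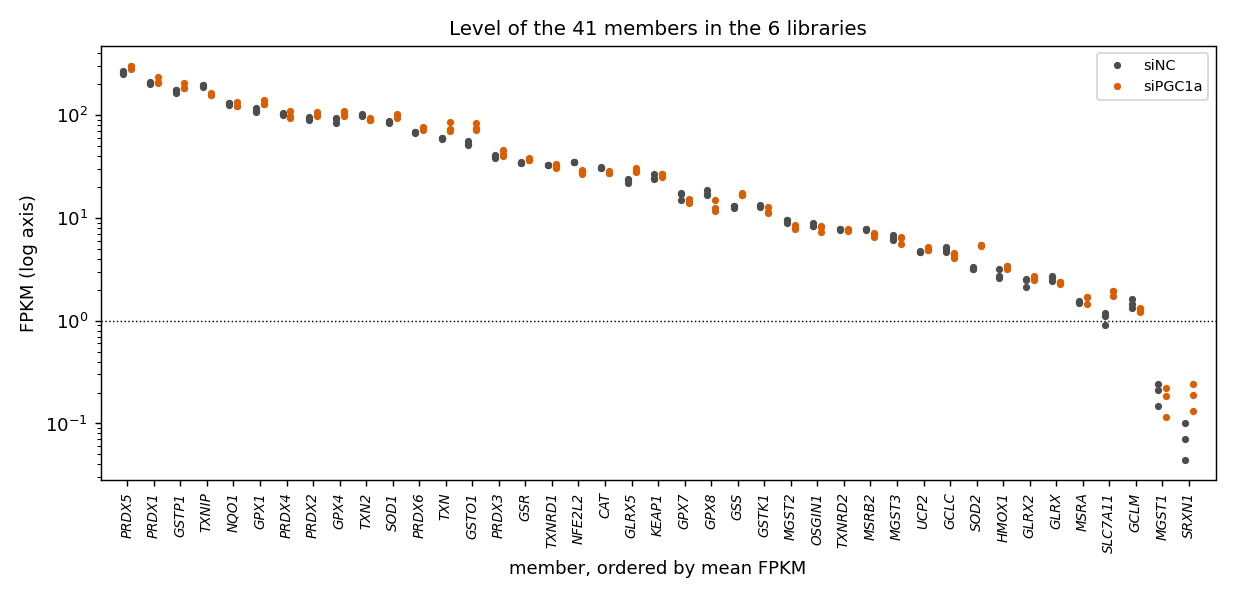
FPKM of the 41 members in every library on a log axis, ordered by mean level, with siNC in grey and siPGC1a in orange and the minimum of 1 FPKM as a dotted line. PRDX5 stands at the left end and MGST1 and SRXN1 at the right end below the line, and the 6 libraries of most members lie close together.

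NFE2L2, which encodes NRF2 itself, was lower in every siPGC1a library. It read 35.1, 34.9 and 34.7 FPKM in siNC and 29.3, 26.6 and 28.2 FPKM in siPGC1a. The ratio of means was 0.802 (log2 difference -0.31, SE 0.04, limma adjusted p = 0.000368), and a two-sided exact permutation test gave 0.1, which 3 libraries against 3 cannot go below. KEAP1, the adaptor that presents NRF2 to a ubiquitin ligase, read 24.0, 26.7 and 24.3 FPKM in siNC and 26.5, 26.7 and 25.3 FPKM in siPGC1a. These groups overlapped and the difference was 0.06 (95% interval -0.05 to 0.17, limma adjusted p = 0.308). The transcripts of the sensor and of the factor it controls therefore had different outcomes in the test, though their difference from each other was not tested.

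Antioxidant response elements are recognised by a short core, and short windows show where it occurs among the members. The looser core TGANNNNGC, searched on both strands in RefSeq promoter windows (GRCh38.p14, 250 bases before to 50 after the start), was present in 19 of the 31 members with a window (61.3%), in 4 of 6 NRF2 targets (66.7%) and in 51.1% of tested genes with a window. The stricter core TGACNNNGC, added after the looser one had been counted, was present in 6 members (19.4%), in 2 NRF2 targets and in 19.8% of tested genes with a window. Every match to it is also a match to the looser core. The 5 windows below, written 5′ to 3′ on the strand of the match with the core in capitals, show the stricter core in 2 NRF2 targets and in the 2 constitutive members that held it and were higher. They lie at chr1:93909446-93909474 (GCLM, + strand), chr12:104215670-104215698 (TXNRD1, + strand), chr11:67583736-67583764 (GSTP1, + strand), chr10:104254656-104254684 and chr10:104254721-104254749 (GSTO1, + strand).
GCLM: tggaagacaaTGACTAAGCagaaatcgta
TXNRD1: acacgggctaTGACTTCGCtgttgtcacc
GSTP1: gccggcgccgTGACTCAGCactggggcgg
GSTO1, farther from the start: ggcggagggaTGACTGAGCatttataact
GSTO1, nearer the start: cgagatgcttTGACACAGCcccttaagat
In these windows the core began 66 bases before the start for GSTP1, 99 for TXNRD1, and 226 and 161 for GSTO1, whereas in GCLM it lay on the strand opposite the gene. GCLM and TXNRD1 did not pass the limma threshold and GSTP1 and GSTO1 were higher, so members sharing the core did not share an outcome. PRDX1, MSRA, TXN2, PRDX6, SOD1, GSR, SLC7A11, MGST2, HMOX1 and GSS had no window in the table.

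Of the 7 NRF2 targets tested, 2 were higher, 1 was lower and 4 did not pass, and their median difference was -0.04. The share that passed, 42.9%, was near the 48.1% of all genes tested. The outcome depended on the list. A wider list that adds GSR, TXN and PRDX1 had 10 tested targets, 4 higher (40%) and 1 lower (10%), with a median of 0.03. Of all genes tested 25.6% were higher and 22.5% lower. SLC7A11, the cystine importer that feeds glutathione synthesis, read 1.18, 0.903 and 1.12 FPKM in siNC and 1.92, 1.72 and 1.95 FPKM in siPGC1a. Every siPGC1a library was above every siNC library, with a ratio of means of 1.74 (log2 difference 0.47, SE 0.07, limma adjusted p = 0.000554). About 221 to 301 reads lie behind each SLC7A11 value in siNC and 416 to 486 behind each in siPGC1a. HMOX1, which encodes haem oxygenase 1, read 2.60, 3.21 and 2.72 FPKM in siNC and 3.22, 3.40 and 3.42 FPKM in siPGC1a (ratio 1.18, limma adjusted p = 0.0453). Its groups came close, since siNC replicate 2 nearly reached siPGC1a replicate 1, and about 164 to 213 reads lie behind each value. The HMOX1 call was lost when siNC replicate 1 (adjusted p = 0.147) or replicate 3 (0.135) was left out, and when any siPGC1a library was (0.0625, 0.094 and 0.105 for replicates 1, 2 and 3). Its adjusted p ran from 0.0101 to 0.153 over the alternatives.

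Both subunits of glutamate-cysteine ligase, which carries out the rate-limiting step of glutathione synthesis, had lower values in siPGC1a. GCLC, the catalytic subunit, read 5.21, 4.68 and 4.99 FPKM in siNC and 4.51, 4.08 and 4.37 FPKM in siPGC1a (ratio 0.871, log2 difference -0.16, limma adjusted p = 0.0302). The GCLC call was lost when siNC replicate 1 (adjusted p = 0.102) or replicate 3 (0.0869), or siPGC1a replicate 2 (0.0914) or replicate 3 (0.0504), was left out, and with no minimum level (0.0884). GCLM, the modifier subunit, read 1.62, 1.46 and 1.32 FPKM in siNC and 1.31, 1.32 and 1.22 FPKM in siPGC1a. Its groups just failed to overlap, and its difference of -0.11 did not pass (95% interval -0.25 to 0.04, limma adjusted p = 0.193). The transporter gene SLC7A11 thus stood on the other side of 0 from the 2 ligase genes.

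The most abundant of the 7 NRF2 targets tested among the members showed little difference. NQO1, a quinone reductase often used as an NRF2 reporter gene, read 129.8, 126.5 and 129.9 FPKM in siNC and 122.6, 123.9 and 132.9 FPKM in siPGC1a. Its groups overlapped, and its 95% interval ran from -0.12 to 0.06 on the log2(FPKM + 1) scale. TXNRD1, the cytosolic thioredoxin reductase, stood at 32.8 ± 0.136 and 31.9 ± 1.13 FPKM (SD, n = 3; 95% interval of the difference -0.13 to 0.05). OSGIN1, a stress-induced growth inhibitor, stood at 8.58 ± 0.339 and 7.96 ± 0.543 FPKM (SD, n = 3; interval -0.22 to 0.03). With the log2 values scaled to the same quantiles, NQO1 (adjusted p = 0.0306) and TXNRD1 (0.0371) passed as lower, and the 7 targets then gave 2 higher and 3 lower. SRXN1, sulfiredoxin, was below the minimum at 0.07, 0.101 and 0.044 FPKM in siNC and 0.131, 0.191 and 0.242 FPKM in siPGC1a. The SRXN1 values rest on about 3 to 17 reads per library and were not tested.

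**Figure D3:**
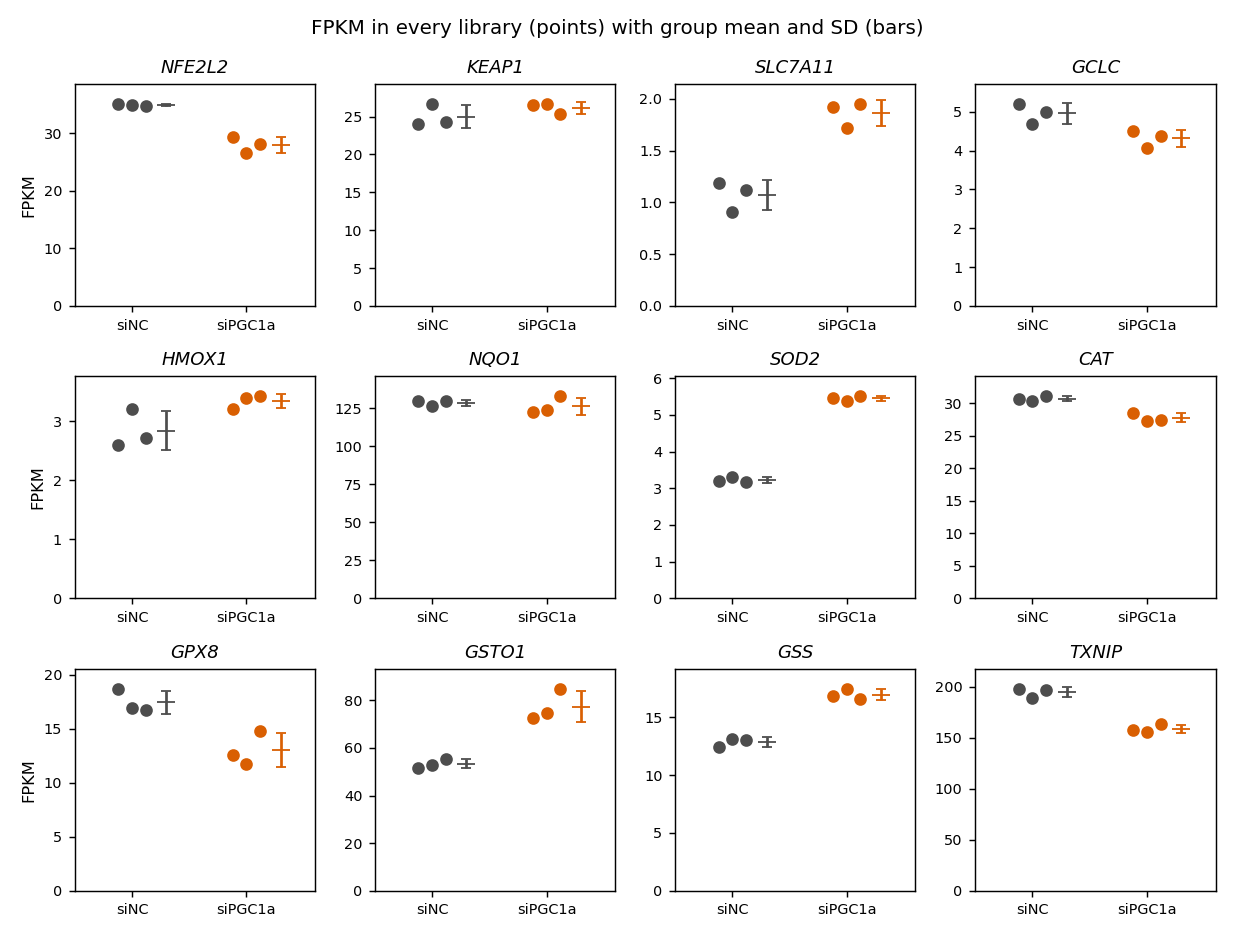
FPKM of 12 members in each of the 3 siNC (grey) and 3 siPGC1a (orange) libraries, with the group mean and SD beside the points and the y axis of each panel starting at 0. SOD2, SLC7A11, GSTO1 and GSS are higher in every siPGC1a library, NFE2L2, GPX8, TXNIP and CAT are lower, and the groups overlap for KEAP1 and NQO1.

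Among the constitutive enzymes 13 of the 30 tested were higher (43.3%), 8 lower (26.7%) and 9 not past the threshold, with a median difference of 0.08, beside 25.6% higher and 22.5% lower of all genes tested. The lower count was 5 without siNC replicate 1, 5 without siNC replicate 2, 4 without siNC replicate 3, 5 without siPGC1a replicate 1 and 5 with no minimum level. The 13 enzymes that act on superoxide and peroxides gave 7 higher, 3 lower and 3 not past. SOD2, the manganese superoxide dismutase of mitochondria, had the largest difference of the tested members on the log2(FPKM + 1) scale, though not by the ratio of means, where SLC7A11 was above it. It read 3.21, 3.30 and 3.16 FPKM in siNC and 5.47, 5.39 and 5.51 FPKM in siPGC1a, a ratio of 1.69 (log2 difference 0.61, SE 0.04, limma adjusted p = 9.33e-06). The SD within a group was 0.0729 FPKM in siNC and 0.061 FPKM in siPGC1a, far less than the gap between the group means of 3.23 and 5.45 FPKM. SOD1, the cytosolic copper and zinc enzyme, read 84.9, 87.0 and 83.7 FPKM in siNC and 93.0, 99.2 and 101.9 FPKM in siPGC1a (ratio 1.15, limma adjusted p = 0.00362). CAT, catalase of peroxisomes, went the other way, from 30.7, 30.4 and 31.1 FPKM to 28.5, 27.3 and 27.4 FPKM (ratio 0.904, limma adjusted p = 0.0124), though not past the threshold without siNC replicate 3 (adjusted p = 0.0625).

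Glutathione peroxidases divided by gene. GPX1, the abundant cytosolic and mitochondrial form, read 106.4, 116.4 and 110.0 FPKM in siNC and 129.7, 141.9 and 127.8 FPKM in siPGC1a (ratio 1.20, limma adjusted p = 0.00219). GPX4, which reduces lipid hydroperoxides and restrains ferroptosis, went from 84.6, 94.8 and 91.0 FPKM to 103.0, 110.1 and 98.6 FPKM (ratio 1.15, limma adjusted p = 0.0113), and did not pass with quantile scaling (adjusted p = 0.0866) or with no minimum level (0.072). The 2 members that reside in the endoplasmic reticulum were lower. GPX8 read 18.7, 16.9 and 16.7 FPKM in siNC and 12.6, 11.7 and 14.8 FPKM in siPGC1a, with no overlap (ratio 0.747, log2 difference -0.40, SE 0.08, limma adjusted p = 0.00213). GPX7 read 17.37, 16.95 and 14.95 FPKM in siNC and 14.3, 15.3 and 13.9 FPKM in siPGC1a (limma adjusted p = 0.0423). GPX7 was the member that passed although its groups overlapped, and its call was lost when siNC replicate 1 (adjusted p = 0.134) or replicate 2 (0.124), or siPGC1a replicate 1 (0.107) or replicate 3 (0.112), was left out. The call was lost too with array weights (0.178), limma without trend (0.0552) and no minimum level (0.151).

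Of the 6 peroxiredoxins, which remove peroxides through a reactive cysteine, 3 were higher, 0 were lower and 3 did not pass the limma test (at an unadjusted p under 0.05 the lower count was also 0). Across all genes tested 25.6% were higher and 22.5% lower. Among genes above a mean of 50 FPKM, where all peroxiredoxins except PRDX3 lie, 42.3% were higher and 20.4% lower. PRDX5, found in mitochondria, peroxisomes and cytosol, had a ratio of 1.13 (limma adjusted p = 0.00528, at most 0.0488 over the alternatives). PRDX6, which uses glutathione as its reductant, read 67.0, 68.9 and 68.6 FPKM in siNC and 72.0, 74.2 and 77.2 FPKM in siPGC1a (ratio 1.09, limma adjusted p = 0.0233). PRDX2, a cytosolic form, stood at 93.1 ± 2.78 and 101.3 ± 4.95 FPKM (SD, n = 3; limma adjusted p = 0.048). PRDX6 lost its call when any siNC library was left out (adjusted p = 0.0733, 0.0513 and 0.0705 for replicates 1, 2 and 3), without siPGC1a replicate 3 (0.0583) and with quantile scaling (0.811). With no minimum level the adjusted p of PRDX6 was 0.0561. PRDX2 lost its call likewise without any siNC library (0.146, 0.056 and 0.119), without siPGC1a replicate 2 (0.159) or replicate 3 (0.0512), and with quantile scaling (0.588). PRDX2 also lost it with median-ratio scaling (0.0773), rescaling to a common sum (0.0747), limma without trend (0.08) and no minimum level (0.145). The mitochondrial PRDX3 (ratio 1.08, limma adjusted p = 0.111) passed as higher without siPGC1a replicate 2 (adjusted p = 0.0411). PRDX4 of the endoplasmic reticulum read 104.9, 101.4 and 102.9 FPKM in siNC and 94.0, 97.0 and 110.6 FPKM in siPGC1a. Its siPGC1a libraries lay on both sides of the siNC libraries, and it passed as lower without siPGC1a replicate 3 (adjusted p = 0.0416). PRDX1, the most abundant cytosolic form, had a ratio of 1.06 (limma adjusted p = 0.186).

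The thioredoxin and glutaredoxin genes, whose proteins reduce disulfides, gave 2 higher, 3 lower and 4 not past of 9. These are 22.2% higher and 33.3% lower, beside 25.6% and 22.5% of all genes tested. TXN, the cytosolic thioredoxin, read 59.1, 59.6 and 60.4 FPKM in siNC and 69.3, 74.0 and 85.5 FPKM in siPGC1a (ratio 1.28, limma adjusted p = 0.00221). TXN2, its mitochondrial counterpart, read 98.2, 100.0 and 101.6 FPKM in siNC and 89.7, 93.5 and 89.7 FPKM in siPGC1a (ratio 0.91, limma adjusted p = 0.0121), though not past the threshold without siNC replicate 3 (adjusted p = 0.068). The 2 thioredoxins thus passed in opposite directions with no overlap in either. TXNIP, which binds thioredoxin and restrains glucose uptake, was lower in every siPGC1a library, at 198.1, 189.0 and 196.7 FPKM in siNC and 157.7, 155.9 and 163.2 FPKM in siPGC1a (ratio 0.817, log2 difference -0.29, SE 0.04, limma adjusted p = 0.000187). TXNRD2, the mitochondrial reductase, stood at 7.73 ± 0.112 and 7.65 ± 0.206 FPKM (SD, n = 3; 95% interval of the difference -0.11 to 0.08).

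GLRX5, a mitochondrial glutaredoxin that carries iron-sulfur clusters, read 24.04, 21.99 and 23.37 FPKM in siNC and 28.0, 28.8 and 30.5 FPKM in siPGC1a (ratio 1.26, limma adjusted p = 0.000525). GLRX, the cytosolic form, did not pass (2.59 and 2.35 FPKM, limma adjusted p = 0.159), and nor did GLRX2 (2.38 and 2.59 FPKM, 0.271). MSRB2, a mitochondrial methionine sulfoxide reductase, read 7.72, 7.84 and 7.64 FPKM in siNC and 6.504, 7.205 and 7.005 FPKM in siPGC1a (ratio 0.893, limma adjusted p = 0.03). The MSRB2 call was lost when any siNC library was left out (adjusted p = 0.0649, 0.0866 and 0.0716 for replicates 1, 2 and 3) and without siPGC1a replicate 1 (0.101). With no minimum level the adjusted p of MSRB2 was 0.067. MSRA, which repairs the other stereoisomer of methionine sulfoxide, stood at 1.52 and 1.62 FPKM (limma adjusted p = 0.503).

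Downstream of the ligase, 7 glutathione genes were tested, of which 4 were higher, 2 were lower and MGST3 alone did not pass. The shares were 57.1% higher and 28.6% lower, beside 25.6% and 22.5% of all genes tested. GSS, glutathione synthetase, read 12.4, 13.2 and 13.1 FPKM in siNC and 16.8, 17.5 and 16.6 FPKM in siPGC1a (ratio 1.32, log2 difference 0.37, SE 0.04, limma adjusted p = 0.000121). GSS was therefore higher with no overlap, unlike GCLC and GCLM, which act before it in the same synthesis. GSR, which returns oxidised glutathione to its reduced form, read 34.7, 34.1 and 34.4 FPKM in siNC and 36.7, 36.5 and 37.9 FPKM in siPGC1a (ratio 1.08, limma adjusted p = 0.0408). The GSR call was lost whichever library was left out, with adjusted p of 0.0736, 0.118 and 0.124 without siNC replicates 1, 2 and 3 and of 0.0662, 0.056 and 0.088 without siPGC1a replicates 1, 2 and 3. GSR also lost it with median-ratio scaling (0.0592), rescaling to a common sum (0.103), quantile scaling (0.343) and limma without trend (0.067).

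Glutathione transferases attach glutathione to electrophiles. GSTO1, an omega-class enzyme, came next after SLC7A11 and SOD2 among the tested members by ratio of means, at 51.7, 53.0 and 55.4 FPKM in siNC and 72.4, 74.7 and 84.8 FPKM in siPGC1a (ratio 1.45, log2 difference 0.52, SE 0.06, limma adjusted p = 9.96e-05). GSTP1, the pi-class enzyme abundant in many tumours, read 165.8, 175.9 and 175.2 FPKM in siNC and 185.4, 204.6 and 183.3 FPKM in siPGC1a (ratio 1.11, limma adjusted p = 0.0302). MGST2, a microsomal enzyme, was lower at 9.01, 9.57 and 9.54 FPKM in siNC and 7.92, 7.74 and 8.44 FPKM in siPGC1a (ratio 0.857, limma adjusted p = 0.00682). GSTK1, of mitochondria and peroxisomes, stood at 13.1 ± 0.291 and 11.7 ± 0.852 FPKM (SD, n = 3; limma adjusted p = 0.0473), and with the replicate number as a block its adjusted p was 0.0584. GSTK1 also lost its call when any siNC library was left out (0.0868, 0.0721 and 0.146 for replicates 1, 2 and 3) and without siPGC1a replicate 1 (0.129) or replicate 3 (0.134). GSTP1 lost its call without siNC replicate 1 (0.101) or replicate 3 (0.0611), without siPGC1a replicate 2 (0.0942) and with quantile scaling (0.252). Neither GSTK1 nor GSTP1 passed with no minimum level or in limma without trend. MGST3 did not pass (6.39 and 6.13 FPKM, limma adjusted p = 0.503), and MGST1, under the minimum, read 0.116 to 0.244 FPKM over the 6 libraries. The summed level of the 6 transferases was 246.5 to 259.8 FPKM in siNC and 282.7 to 306.3 FPKM in siPGC1a, without overlap. Most of this sum was GSTP1 and GSTO1 (siNC means of 172.3 and 53.3 FPKM, of a mean sum of 254.7 FPKM). The sum therefore does not describe MGST2 and GSTK1, which were lower.

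UCP2, a carrier of the mitochondrial inner membrane linked to lower superoxide production, read 4.63, 4.74 and 4.63 FPKM in siNC and 4.85, 5.21 and 4.87 FPKM in siPGC1a. Its groups did not overlap, yet its difference of 0.08 did not pass (95% interval -0.03 to 0.18, limma adjusted p = 0.207). UCP2 is also among 9 members that background knowledge links to PGC1-alpha. Of these, SOD1, SOD2, GPX1 and PRDX5 were higher (44.4%), CAT and TXN2 lower (22.2%), and PRDX3, TXNRD2 and UCP2 not past, with a median difference of 0.11. Of 10 members listed as mitochondrial, a list without the partly mitochondrial GPX1, 3 were higher (SOD2, PRDX5 and GLRX5), 3 lower (TXN2, MSRB2 and GSTK1) and 4 not past, with a median of 0.08. For both lists the shares of all genes tested were 25.6% higher and 22.5% lower.

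Abundant members leaned higher, and so did abundant genes in general. Of the 14 members above a mean of 50 FPKM, 9 were higher, 2 lower (TXNIP and TXN2) and 3 not past (PRDX1, PRDX4 and NQO1). Among all 814 genes above that level 42.3% were higher and 20.4% lower. This split was chosen after the values were seen. With quantile scaling, which holds the distribution of levels equal in all libraries, the constitutive enzymes gave 8 higher and 8 lower in place of 13 and 8.

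Partners and regulators of NRF2 outside the members were described by a list of 12 genes. Of these 8 were higher (6 to 9 over the alternatives), BTRC alone was lower and 3 did not pass, with a median difference of 0.20. These are 66.7% higher and 8.33% lower, beside 25.6% and 22.5% of all genes tested. MAFF, a small Maf partner of NRF2, read 2.507, 3.001 and 2.447 FPKM in siNC and 10.12, 10.71 and 10.53 FPKM in siPGC1a (ratio 3.94, limma adjusted p = 2.86e-07). MAFK, another, was at 5.20 ± 0.305 and 6.26 ± 0.056 FPKM (SD, n = 3; limma adjusted p = 0.00421), and MAFG did not pass (8.37 and 9.14 FPKM, 0.16). BACH1, a repressor that competes with NRF2 for the same elements, read 14.9, 14.4 and 14.6 FPKM in siNC and 19.1, 18.0 and 19.1 FPKM in siPGC1a (ratio 1.28, limma adjusted p = 0.000172). SQSTM1, an autophagy receptor that sequesters KEAP1, read 66.6, 73.0 and 68.0 FPKM in siNC and 98.3, 106.1 and 98.8 FPKM in siPGC1a (ratio 1.46, limma adjusted p = 2.41e-05). Genes whose products stabilise NRF2 or work beside it and genes whose products oppose it were thus both among the rises.

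RBX1 (ratio 1.26, limma adjusted p = 0.0007) and CUL3 (ratio 1.14, 0.0439, with overlapping groups), the ligase subunits that act with KEAP1, were higher, as were DPP3 (ratio 1.18, 0.0022), which binds KEAP1, and the related factor NFE2L1 (ratio 1.08, 0.043). BTRC, an F-box protein of a KEAP1-independent ligase for NRF2, fell from 4.41, 4.33 and 4.38 FPKM to 3.17, 2.65 and 2.73 FPKM (ratio 0.652, limma adjusted p = 0.000169). GSK3B, the kinase that primes NRF2 for that ligase, and PARK7 did not pass (ratios 1.03 and 1.04).

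NRF2 targets outside the members showed more falls than rises. Of 23 tested from a list of 29, 1 was higher, 10 were lower and 12 did not pass, so 43.5% were lower, beside 22.5% of all genes tested, and their median difference was -0.06. PGD, of the pentose phosphate pathway that supplies NADPH, read 58.8, 60.9 and 60.2 FPKM in siNC and 46.9, 46.6 and 45.5 FPKM in siPGC1a (ratio 0.773, limma adjusted p = 4.77e-05). FTL, the ferritin light chain, read 2340, 2457 and 2424 FPKM in siNC and 1838, 2041 and 1944 FPKM in siPGC1a (ratio 0.806, limma adjusted p = 0.000294), and PIR, pirin, had a ratio of 0.796 (0.000232). TRIM16 (ratio 0.673) and TRIM16L (ratio 0.609) were lower too, but they are near copies whose reads the counting may have split, and FTL has related pseudogenes. SLC3A2, the heavy chain that partners SLC7A11 in the cystine importer, was the single rise, at 22.2, 23.4 and 24.5 FPKM in siNC and 29.7, 32.2 and 31.9 FPKM in siPGC1a (ratio 1.34, limma adjusted p = 0.000163). The count of lower genes ran from 8 to 11 over the alternatives. Whether it differs from that of the member targets was not tested.

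**Figure D4:**
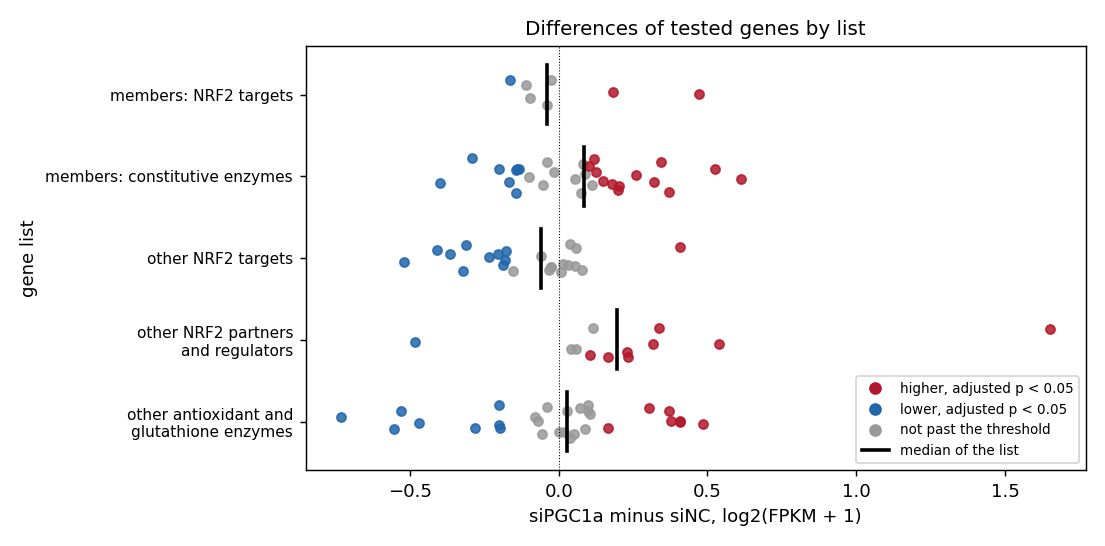
Differences between siPGC1a and siNC on the log2(FPKM + 1) scale (x axis) for the tested genes of 5 lists (y axis), with 1 point per gene, colours for the limma call and a black line at each list's median. The other NRF2 targets show 10 falls and 1 rise, and the partners and regulators 8 rises, with MAFF farthest to the right at 1.65.

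Other antioxidant and glutathione enzymes were divided: of 29 tested, 7 rose (24.1%), 8 fell (27.6%) and 14 did not pass, shares near the 25.6% and 22.5% of all genes tested. GPX3, the secreted glutathione peroxidase, read 37.7, 39.4 and 39.0 FPKM in siNC and 26.1, 26.5 and 26.8 FPKM in siPGC1a (ratio 0.684, limma adjusted p = 7.87e-06). The transferases GSTZ1 (ratio 0.61) and GSTA4 (ratio 0.704) and the transhydrogenase NNT (ratio 0.862), which makes mitochondrial NADPH, were also lower. The sestrins, stress-induced proteins that help to recycle peroxiredoxins, divided: SESN1 (ratio 1.27) and SESN2 (ratio 1.33) were higher and SESN3 lower (ratio 0.59). CHAC1 and CHAC2, which degrade glutathione in the cytosol, were both higher (ratios 1.73 and 1.37), and so was GLO1, glyoxalase 1 (ratio 1.33).

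Some members share bases or sequence with other genes, which bears on how their reads were assigned. In GENCODE v29, exons of SOD2 overlap ACAT2 (ratio 1.30) and WTAP (ratio 1.13) on the other strand, NFE2L2 overlaps AGPS (ratio 1.22), and GLRX5 overlaps SNHG10 (ratio 1.30). The library kit marks strand, but which strand setting the counting used is not given in the sources at hand. SOD2 rose more than either neighbour, NFE2L2 fell while AGPS rose, and GLRX5 and SNHG10 differed by a like ratio, but the part of these neighbours was not tested. TXN has 7 named pseudogenes there, PRDX2 and PRDX3 have 4 each, SOD1 and GLRX 3 each and GPX1 2, so their levels are less certain.

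The 6-base words ACACCT and GTCTTC were counted on the sense strand in the longest annotated 3′ UTR of each gene. They were taken up because an earlier report on these data describes them, so the shares below are not independent of it. Across all genes tested, ACACCT was held by 48.6% of lower genes and 22.7% of higher genes, and GTCTTC by 42.9% and 26.9%. The lower genes also had longer 3′ UTRs (median 1774 against 1098 bases). Among the members ACACCT was held by 1 of the 10 that were lower and 3 of the 15 that were higher, and GTCTTC by 5 and 2 of them. Their 3′ UTRs were shorter, with a median of 834.5 bases in lower members and 593 in higher members. Of the 10 other NRF2 targets that were lower, with a median 3′ UTR of 418.5 bases, 0 held ACACCT and 1 held GTCTTC. The sites of 4 lower members are shown, with the word in capitals.
NFE2L2: cgagagcccaGTCTTCattgctacta
TXNIP: tagagggcagGTCTTCataaaagccc
GPX8: atttgaaaaaGTCTTCatcattttca
TXN2: tcaggcagccACACCTtggtcctcat
TXN2 also held GTCTTC, MGST2 held it at 2 places, and CAT, GCLC, GPX7, GSTK1 and MSRB2 held neither word. The members that were lower were thus mostly without the first word and divided on the second, and the part of either word in their levels was not tested. A short 3′ UTR has fewer places for a word, and the part of length in these shares was not tested either.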

How the data were processed

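Stranded mRNA libraries (6, from WM3248 cells) were sequenced as single reads, per the labels' protocols. The authors deposited FPKM per gene and library. Per the submitters' processing notes, the tools included featureCounts, STAR, DESeq2 and Picard, and hg19 was the genome build; no roles or versions are stated. Genes with a mean of at least 1 FPKM, and PPARGC1A regardless, were compared as log2(FPKM + 1) with limma 3.58.1 in R 4.3.3 (trend, two-sided, no block) with Benjamini-Hochberg adjustment over 12020 genes. Differences are siPGC1a minus siNC, and this scale understates the change of low genes. The model was tested on simulated data in which far fewer genes changed than passed here, so that setting differs from these data.

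Approximate reads came from FPKM, depth and GENCODE v29 exon lengths. Depth was the value at which miRNA genes of at most 20 reads came out whole within 0.1 read (98.3 to 100.0% of 58 to 70 values per library). GENCODE v29 is of another build, so it gave lengths, neighbours and 3′ UTRs only, and promoter windows came from RefSeq.

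The members and lists were chosen with earlier results of these data known. Named genes were PPARGC1A, all members, the NRF2 partners, up to 5 called genes per direction of the other lists, and markers. The alternatives were pseudocounts of 0.1 and 0.5, no minimum or a minimum of 5 FPKM, 3 scalings, limma without trend or with array weights, a replicate block, and each library left out. No library was a copy of another: chi-square per degree of freedom was 1.94 to 5.84 within groups and 27.3 to 36.2 between them.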

Additional observations from a re-analysis of the deposited data

How the results depend on the processing

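Of the 25 members past the threshold, 13 kept their direction and call under each of the 16 alternatives that could test them (NFE2L2, SLC7A11, SOD1, SOD2, GPX1, GPX8, PRDX5, TXN, TXNIP, GLRX5, GSS, MGST2 and GSTO1), and 12 lost the call under at least 1. No scaling turned a member's direction. Leaving out siPGC1a replicate 1 turned the uncalled PRDX4 (from -0.1084 to 0.0076 over the libraries left out) and MGST3 (-0.094 to 0.0078), and leaving out siPGC1a replicate 3 turned the uncalled TXNRD2 (-0.0323 to 0.0019). With a minimum of 5 FPKM, 7272 genes were tested. Of these 2519 were higher, against 3075, and 1607 were lower, against 2707, since fewer genes enter. The 30 members tested there gave 12 higher and 9 lower. In that setting the NRF2 targets gave 0 higher and 0 lower of 3 by limma, and the NRF2 partners 0 lower. With no minimum the members gave 6 lower, the constitutive enzymes 5 lower, the NRF2 targets 1 higher and 0 lower, and the other NRF2 targets 2 higher. Median-ratio scaling and rescaling to a common sum each left 1 NRF2 target higher. Quantile scaling gave 3 NRF2 targets lower and 8 constitutive enzymes higher, and the wider target list with GSR, TXN and PRDX1 gave 4 higher. Over the fits that leave out 1 library, members higher ran from 10 to 13 and lower from 5 to 9, NRF2 targets higher from 1 to 2 and lower from 0 to 1, and constitutive enzymes higher from 9 to 12 and lower from 4 to 8. All genes ran from 2470 to 2896 higher and from 2176 to 2513 lower. These fits hold 5 libraries, so part of the loss follows from their size.

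Same-numbered libraries did not deviate together (correlations of deviations 0.08, 0.26 and -0.06), and the labels tie no numbers to a shared culture. With the replicate block 3253 genes were higher and 2826 lower, the members gave 15 higher and 9 lower, the NRF2 targets 2 and 1 and the constitutive enzymes 13 and 7. The block ended the GSTK1 call and no other member's. Reads limit SRXN1, MGST1, MSRA, HMOX1, GCLM and SLC7A11 most.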
